A study of Arabidopsis thaliana with 12 samples.

Results

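The comparison set shoots of a hasty knockout against shoots of wild type (WT) Arabidopsis thaliana, ecotype Col-0, in the control nitrogen condition, by sequencing small RNAs and counting them by microRNA (miRNA) name. It used 6 of the 12 libraries of the series, chosen by their genotype and treatment labels: 3 biological replicates of the hasty knockout in control, and 3 of WT in control. Seedlings of both genotypes were 10 days old at harvest, after 5 days of standard growth and 5 days in the condition. The labels name neither the hasty allele nor the control medium, and do not say how many seedlings each replicate held. The other 6 libraries, hasty and WT after 5 days of low nitrogen, entered the fit for its estimate of spread and are compared once near the end.

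HASTY (HST) is the plant relative of the nuclear export receptor exportin-5. In plants a miRNA is cut from a hairpin precursor by DICER-LIKE1 in the nucleus, as a duplex of a 5p and a 3p arm, then methylated and loaded into an ARGONAUTE protein, usually AGO1, while the other arm is mostly degraded. Loss of HASTY is known to lower many miRNAs but not all, to hasten the change from juvenile to adult leaves and to alter leaf shape, and the protein has since been linked to the transcription and processing of MIR genes and to miRNA movement between cells. Messenger RNA is not measured in such libraries, so loss of HST could not be checked and rests on the genotype label. No messenger RNA marker of shoot tissue is measured either, and in shoots as a whole a miRNA lower in every cell cannot be told apart from fewer cells that hold it.

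The table listed 390 names, 216 of known miRNAs and 174 predicted names numbered as NovelmiRNA, which have neither a sequence nor a position here. Reads of one mature sequence were listed under several names, so names of one sequence were treated as 1, with the highest count of any of them in each library, which left 165 known sequences and 150 predicted ones. Counted so, the hasty libraries held 747410, 848837 and 668819 counts and the WT libraries 1213669, 1271465 and 1413821. Levels are counts scaled to 1000000 per library (CPM) after scaling by trimmed mean of M values (TMM). The 7 names of miR166 share 1 sequence, which alone took 25.4%, 24.0% and 26.9% of the counts in the hasty libraries and 17.6%, 20.7% and 16.9% in the WT libraries, so a scaling set by other sequences matters to every small change below.

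A listed 0 was not always a low level. In WT, miR319b was listed at 0 in all 3 libraries while miR319a, of the same sequence, held 1914, 2172 and 1707 counts. The miR390 sequence held 1049, 1157 and 1157 counts in the hasty libraries and 0, 0 and 865 in the WT libraries, and miR822-3p held 5071, 6119 and 0 in hasty and 4617, 0 and 0 in WT. In 51 sequences 1 or 2 libraries of a group were listed at 0 although the others of that group held 50 counts or more. The cause of these zeros was not tested, and the sequences above 0 in all 6 libraries carry the account that follows.

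**Figure D1:**
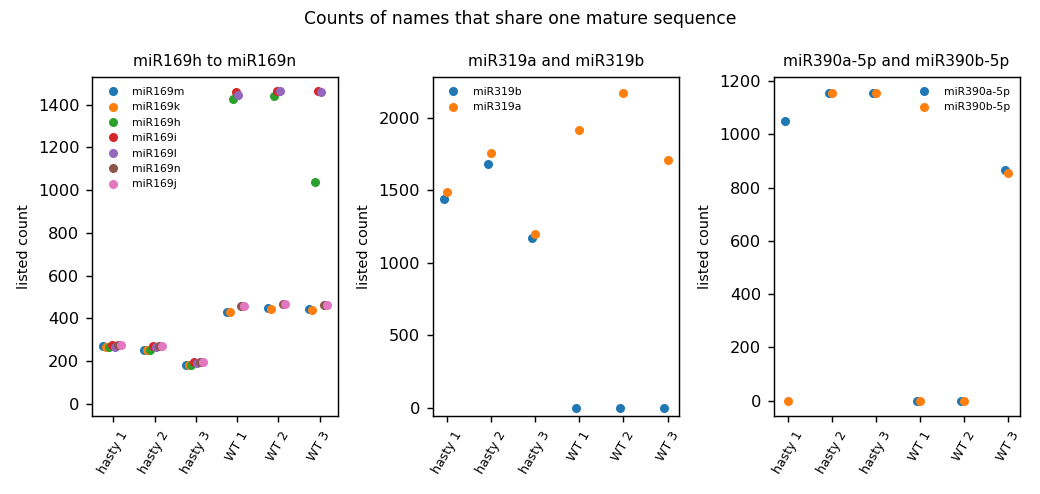
Listed counts (vertical axes, from below 0 to show zeros) of names that share 1 mature sequence, in the 3 hasty libraries at the left and the 3 WT libraries at the right of each panel. The names of miR169h to miR169n hold like counts in hasty, but in WT miR169i stands 1000, 999 and 999 counts above miR169j; miR319b is listed at 0 in WT beside miR319a, and miR390 is at 0 in 2 WT libraries.

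The mature sequences below are those on which the results turn, given as related sets so that near-identical sequences and both arms of a hairpin can be compared. They were matched by exact name to the RefSeq annotation of TAIR10.1, as were all 216 known names, and are written 5′ to 3′ with the seed (bases 2 to 8) in capitals. The deposited table gives no sequences, so these are reference sequences. The first set acts on MYB33-type and TCP leaf genes, and miR159a, miR159b-3p and miR159c share a seed and differ from one another at base 20 or 21 or both.
miR159a: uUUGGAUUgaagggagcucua
miR159b-3p: uUUGGAUUgaagggagcucuu
miR159c: uUUGGAUUgaagggagcuccu
miR319a: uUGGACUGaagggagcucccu
The miR156 and miR157 set shows the 5p arms that act on SPL genes, offset by 1 base, and 3p arms that differ between hairpins.
miR156a-5p: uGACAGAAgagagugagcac
miR157a-5p: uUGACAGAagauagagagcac
miR156b-3p: uGCUCACCucucuuucugucagu
miR156c-3p: gCUCACUGcucuaucugucaga
miR156f-3p: gCUCACUCucuauccgucacc
Both arms of hairpins whose arm ratio differed are next. The 5p sequences of miR396a and miR396b share a seed and differ at base 21, whereas their 3p sequences differ at 3 bases, 2 of them in the seed.
miR396a-5p: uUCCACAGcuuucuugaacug
miR396b-5p: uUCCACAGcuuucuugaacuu
miR396a-3p: gUUCAAUAaagcugugggaag
miR396b-3p: gCUCAAGAaagcugugggaaa
miR393b-5p: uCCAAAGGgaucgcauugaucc
miR393b-3p: aUCAUGCGaucucuuuggauu
miR167a-5p: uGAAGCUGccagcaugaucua
miR167a-3p: gAUCAUGUucgcaguuucacc
Pairs of copper-linked miRNAs that share a seed follow. They differ from each other at base 13 (miR397) or base 21 (miR398).
miR397a: uCAUUGAGugcagcguugaug
miR397b: uCAUUGAGugcaucguugaug
miR398a-3p: uGUGUUCUcaggucaccccuu
miR398b-3p: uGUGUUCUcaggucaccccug
The last set holds regulators of the small RNA machinery and other sequences with large changes.
miR168a-5p: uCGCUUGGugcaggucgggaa
miR403-3p: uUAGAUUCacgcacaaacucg
miR162a-3p: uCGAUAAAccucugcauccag
miR164a: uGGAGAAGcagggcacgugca
miR827: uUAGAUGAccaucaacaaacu
miR781a: uUAGAGUUuucuggauacuua
miR824-5p: uAGACCAUuugugagaaggga
miR858a: uUUCGUUGucuguucgaccuu

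In hasty shoots more sequences were lower than higher. Of 206 sequences tested, 84 differed (40.8%) at an adjusted p under 0.05 by edgeR's quasi-likelihood test with Benjamini-Hochberg adjustment, 34 higher in hasty (16.5%) and 50 lower (24.3%). Among the 126 of these above 0 in all 6 libraries, 27 were higher, 42 lower and 57 did not pass. The tested sequences with a 0 in any of the 6 gave 7 higher, 8 lower and 65 that did not pass. The shares over all given below include them, so they are too low a background for lists with no such member. Every called sequence among the 126 had groups without overlap, as did 58.3% of all tested sequences. Lack of overlap therefore does not set any of these calls apart from the others. Known sequences gave 22 higher and 37 lower of 125 tested, and predicted ones 12 higher and 13 lower of 81. The split depends on the settings: it was 53 higher and 50 lower by DESeq2, which changes both test and scaling, 39 higher and 43 lower with median-of-ratios size factors in edgeR, and 21 higher and 58 lower with the miR166 sequence left out. Leaving out WT replicate 2 gave 21 higher and 46 lower. The median log2 change of all tested sequences was 0.03, and alternative settings moved it by -0.20 to 0.11. Over the 126 sequences above 0 in all 6 libraries the median was -0.18, and it was moved by -0.29 with no filter on low counts and by 0.10 with median-of-ratios size factors, so changes of that size depend on the settings. Unless stated otherwise, each call between genotypes in control of a single sequence or arm ratio named below passed under every alternative tried.

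**Figure D2:**
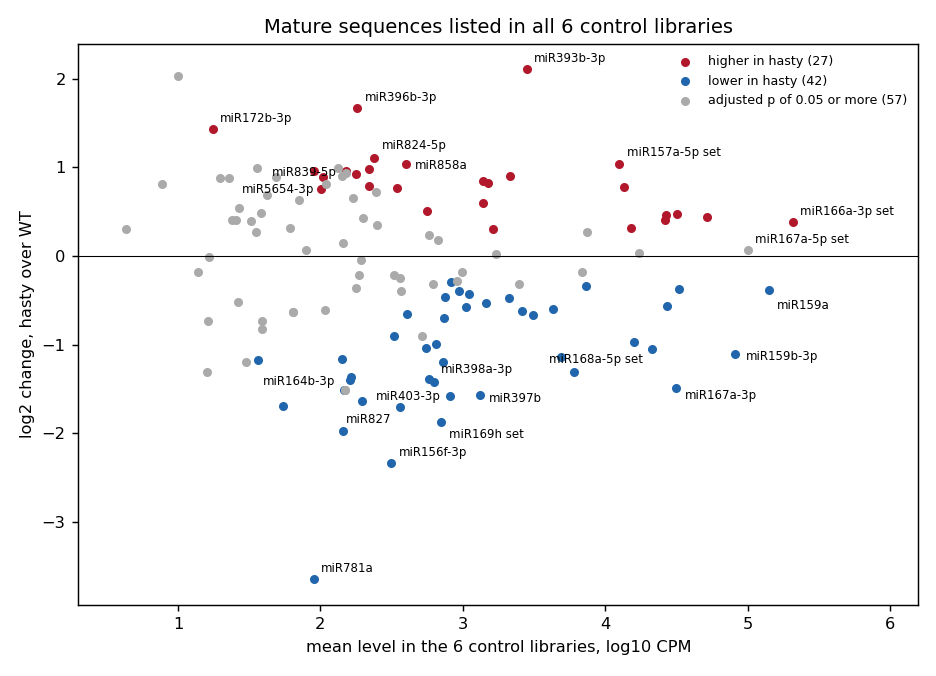
Each point is 1 of the 126 tested sequences listed in all 6 control libraries, with its mean level (horizontal, log10 CPM) and its log2 change of hasty over WT (vertical). Red points were higher in hasty (27) and blue points lower (42) at an adjusted p under 0.05, grey points did not pass (57), and "set" marks a sequence of several names; miR393b-3p is the highest point and miR781a the lowest.

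Regulators of the small RNA machinery were among the sequences that fell. The miR162, miR168 and miR403 families act on the messengers of DCL1, AGO1 and AGO2 through miR162 3p, miR168 5p and miR403-3p. Counting both arms, 7 sequences were tested. In hasty 4 were lower (57.1%, against 24.3% over all and 42 of the 126 above 0 in all 6 libraries). Of the others 1 was higher (14.3%, against 16.5% and 27 of the 126) and 2 did not pass. The lower ones include the other arms miR168a-3p and miR168b-3p. The median log2 change was -1.31, against -0.18 over the 126 sequences above 0 in all 6 libraries, as these 7 are. That median is the value of miR403-5p, which did not pass. The miR168 5p sequence, which limits AGO1 in a feedback loop, had 12783, 13429 and 15602 CPM in the hasty libraries and 27507, 30266 and 28837 CPM in the WT libraries. Every hasty library lay well below every WT library (log2 change of -1.05 ± 0.10 (SE), adjusted p = 5.40e-05, edgeR). The 3p arms fell with it: miR168a-3p had a log2 change of -1.39 and miR168b-3p of -1.40 (adjusted p = 2.56e-05 and 9.03e-04, edgeR). The AGO2 regulator miR403-3p had 381, 455 and 375 CPM in hasty and 1179.8, 1206 and 1246 CPM in WT. It was 3-fold lower in hasty, without overlap (log2 change of -1.58 ± 0.09 (SE), adjusted p = 3.22e-06, edgeR). The miR162 3p sequence, which acts on DCL1, went the other way, with 17762, 16565 and 16208 CPM in hasty and 14002, 12605 and 14037 CPM in WT. That difference was small (log2 change of 0.31 ± 0.06 (SE), adjusted p = 0.00182, edgeR) and lost its call in 7 alternatives, among them the miR166 sequence left out and no filter on low counts.

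The miR156 and miR157 families hold the juvenile phase through SPL transcription factors. Of 12 tested sequences 2 were higher (16.7%, against 16.5% over all), 5 lower (41.7%, against 24.3%) and 5 did not pass. Of the 12, 11 were above 0 in all 6 libraries, where 42 of 126 sequences were lower. The miR157 5p sequence, shared by 3 hairpins, had 15860.1, 17480.5 and 17416 CPM in the hasty libraries and 7694, 7669 and 9264 CPM in the WT libraries. Hasty was 2.06-fold higher, with every library above every WT library (log2 change of 1.04 ± 0.08 (SE), adjusted p = 1.82e-05, edgeR). The miR156 5p sequence, shared by 6 known names, had 1863, 1741 and 1679 CPM in hasty and 2466, 2252 and 2615 CPM in WT. It was lower in hasty without overlap (log2 change of -0.47 ± 0.08 (SE), adjusted p = 0.00144, edgeR), so the ratio of miR157 to miR156 5p was 8.51, 10 and 10.4 in hasty and 3.12, 3.41 and 3.54 in WT. With 3 libraries against 3 the exact permutation test of such a ratio can go no lower than p = 0.10, which this one reached. The steepest falls were on 3p arms: miR156f-3p had 83.1, 96.7 and 130.4 CPM in hasty and 525, 635 and 414 CPM in WT (log2 change of -2.34 ± 0.30 (SE), adjusted p = 2.54e-04, edgeR), the steepest fall of any known sequence other than miR781a among those above 0 in all 6 libraries. The 3p arms of miR156d and miR156c fell too, by 1.36 and 1.31 on the log2 scale (adjusted p = 9.39e-04 and 1.77e-05, edgeR). By contrast miR156b-3p was higher in hasty, at 31102, 29718 and 31796 CPM against 22020.0, 23119 and 22011 CPM in WT (log2 change of 0.46 ± 0.08 (SE), adjusted p = 0.00173, edgeR), a call lost with miR166 left out or with no filter. The ratio of miR156c-3p to miR156b-3p, which no scaling of libraries can move, was 0.118, 0.125 and 0.0925 in hasty and 0.409, 0.335 and 0.404 in WT, without overlap (exact permutation p = 0.10). The adult-phase miRNA miR172, which acts on AP2-like factors, was rare: miR172b-3p had 19.8, 17.6 and 39.8 CPM in hasty and 12.3, 5.83 and 10.2 CPM in WT. The call of its rise (log2 change of 1.43 ± 0.45 (SE), adjusted p = 0.029, edgeR) was lost in 11 alternatives. The sum of the 3 miR172 sequences of 1 seed was 36.7 ± 10.4 CPM in hasty and 14 ± 3.74 CPM in WT (SD, n = 3 each, adjusted p = 0.00853, edgeR). Most of that sum is miR172b-3p itself, so it is not separate support, and the call of the sum was not followed through the alternatives.

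Of 15 tested sequences of leaf development miRNAs 7 were higher (46.7%, against 16.5% over all) and 6 lower (40%, against 24.3%). Of the rises, those of the miR166 3p, miR319 and both miR396 5p sequences were each lost in 8 to 12 alternatives. The miR164 family limits CUC boundary factors. Its 5p sequence from miR164a and miR164b had 3190.4, 3086 and 2916 CPM in the hasty libraries and 6416, 7038 and 6859.8 CPM in the WT libraries. No hasty library came near a WT one (log2 change of -1.14 ± 0.06 (SE), adjusted p = 2.10e-06, edgeR). The 3p arm miR164b-3p had 89.3, 52.7 and 85.1 CPM in hasty and 252, 203 and 196 CPM in WT and fell too (log2 change of -1.52 ± 0.26 (SE), adjusted p = 0.00113, edgeR). The rare miR164c-3p, listed at 0 in hasty replicate 1, did not pass (log2 change of -1.31, adjusted p = 0.355, edgeR). The related miR164c-5p, which differs from miR164a at base 21, fell less, with a log2 change of -0.57 (adjusted p = 0.00368, edgeR), and the ratio of miR164a to miR164c-5p was 4.15, 3.82 and 3 in hasty and 5.03, 5.37 and 5.70 in WT, without overlap (exact permutation p = 0.10). The sequence of miR166, which patterns leaf polarity through HD-ZIP III factors, was the most abundant in every hasty library, at 234991, 223461 and 247372 CPM in hasty and 174621, 191338 and 174367 CPM in WT. The rise was modest (log2 change of 0.39 ± 0.09 (SE), adjusted p = 0.00867, edgeR), and its call was lost in 8 of 19 alternatives. The 5p arm of miR166a and miR166b was lower in hasty (log2 change of -0.43) and that of miR166e higher (0.60, a call lost with no filter), so that the ratio of the miR166e to the miR166a 5p sequence was 1.55, 1.89 and 1.86 in hasty and 0.835, 0.860 and 0.892 in WT. Those ratios do not overlap (exact permutation p = 0.10), and both 5p sequences passed the edgeR test on their own (adjusted p = 0.00274 and 5.65e-04). The growth regulator miR396, which limits GRF factors, differed by hairpin on its 3p arm. The miR396b-3p sequence had 290.3, 290.0 and 247 CPM in hasty and 99.95, 83.1 and 76.9 CPM in WT, 3.18-fold higher without overlap (log2 change of 1.67 ± 0.19 (SE), adjusted p = 1.15e-04, edgeR). By contrast miR396a-3p had 1885, 2218 and 2044 CPM in hasty and 3250.1, 3233 and 2989 CPM in WT and fell (log2 change of -0.62 ± 0.10 (SE), adjusted p = 9.03e-04, edgeR). The ratio of the 2 sequences, miR396b-3p over miR396a-3p, was 0.154, 0.131 and 0.121 in hasty and 0.0307, 0.0257 and 0.0257 in WT (exact permutation p = 0.10). Both 5p arms were somewhat higher in hasty, with log2 changes of 0.44 and 0.48, calls lost in 12 and 9 alternatives. Not every pair of near-identical sequences parted. The ratio of miR396b-5p to miR396a-5p overlapped between genotypes (exact permutation p = 0.50), as did that of miR165a-3p to miR166a-3p (exact permutation p = 0.80). The TCP regulator miR319, taken as 1 sequence, had a log2 change of 0.30 (adjusted p = 0.0464, edgeR), a call lost in 11 alternatives.

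Of 11 tested auxin-linked sequences, of miR160, miR167, miR393 and miR847, 2 were higher (18.2%) and 3 lower (27.3%), close to the shares over all tested sequences, and 6 did not pass. The arm miR393b-3p, which lies at chr3:20691778-20691798 (TAIR10.1, plus strand), had 4394, 4825 and 4495 CPM in the hasty libraries and 1149, 701 and 1332 CPM in the WT libraries. Hasty was 4.31-fold higher without overlap, the largest rise of any sequence above 0 in all 6 libraries that passed (log2 change of 2.11 ± 0.24 (SE), adjusted p = 9.58e-05, edgeR). Its partner, the 5p sequence shared with miR393a, which acts on TIR1-type auxin receptors, had 96.8, 78 and 67.3 CPM in hasty and 91.8, 72.1 and 67.3 CPM in WT and did not pass (adjusted p = 0.852, edgeR). The regulator of the auxin response factors ARF6 and ARF8, miR167, showed the reverse arrangement. The passenger arm miR167a-3p had 19147, 16520.3 and 14043 CPM in hasty and 46864, 51691 and 40857 CPM in WT, 2.80-fold lower in hasty (log2 change of -1.49 ± 0.16 (SE), adjusted p = 8.86e-05, edgeR). The abundant 5p arm, shared by miR167a and miR167b, had 102594, 108544 and 96556 CPM in hasty and 96558, 85812 and 110888 CPM in WT, groups that overlap. A log2 change of 0.07 for it did not pass (adjusted p = 0.615, edgeR). For miR167c the arms crossed: the 3p arm was higher in hasty (log2 change of 0.50) and the 5p arm lower (-0.39), calls lost in 10 and 8 alternatives, while their ratio kept its call in all.

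All 3 tested miR159 sequences fell, against 24.3% lower over all tested sequences and 42 of the 126 above 0 in all 6 libraries, as these 3 are. They act on the GAMYB-like factors MYB33 and MYB65. The miR159b-3p sequence had 51372, 53261 and 50103 CPM in the hasty libraries and 116397, 92478 and 125441 CPM in the WT libraries. No hasty library reached the lowest WT one (log2 change of -1.11 ± 0.12 (SE), adjusted p = 8.86e-05, edgeR). For miR159a the levels were 115735, 130382 and 123984 CPM in hasty and 164765, 135692 and 184230.0 CPM in WT, a smaller fall (log2 change of -0.39 ± 0.12 (SE), adjusted p = 0.0285, edgeR) whose call was lost in 10 alternatives. The rare miR159c had a log2 change of -0.99 (adjusted p = 4.63e-04, edgeR). The ratio of miR159b-3p to miR159a was 0.444, 0.408 and 0.404 in hasty and 0.706, 0.681 and 0.681 in WT, without overlap (exact permutation p = 0.10), although the 2 sequences differ at base 21 alone, and the sum of the seed group was 169810.0 ± 7969 CPM in hasty and 281936 ± 43876 CPM in WT (SD, n = 3 each, adjusted p = 0.00163, edgeR).

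Copper-linked miRNAs were lower where they passed: 4 of 7 tested sequences of miR397, miR398 and miR408 fell (57.1%, against 24.3% over all) and none rose. All 7 were above 0 in all 6 libraries, where 42 of 126 sequences fell. The median log2 change of the 7 was -0.60, against -0.18 over the 126. The laccase regulator miR397b had 679.8, 762 and 548 CPM in the hasty libraries and 2012, 1832 and 2067 CPM in the WT libraries (log2 change of -1.57 ± 0.14 (SE), adjusted p = 3.08e-05, edgeR). The groups did not overlap, and miR397a, with a log2 change of -1.18, was lower too (adjusted p = 0.026, edgeR), a call lost in 4 alternatives. The ratio of miR397b to miR397a was 22.83, 49.57 and 24.94 in hasty and 33.64, 40.55 and 43.43 in WT. These ratios overlap (exact permutation p = 0.40). For miR398, which acts on copper superoxide dismutases, the hairpins separated. The miR398a-3p sequence had 362, 342 and 313 CPM in hasty and 819, 1046 and 857 CPM in WT, 2.68-fold lower in hasty (log2 change of -1.42 ± 0.11 (SE), adjusted p = 1.77e-05, edgeR). The far more abundant miR398b and miR398c 3p sequence had 18946, 17294 and 15838 CPM in hasty and 15355, 18236 and 17433 CPM in WT, groups that overlap, and did not pass (log2 change of 0.03, adjusted p = 0.865, edgeR). The ratio of miR398a-3p to that sequence was 0.0191, 0.0198 and 0.0198 in hasty and 0.0534, 0.0573 and 0.0492 in WT (exact permutation p = 0.10). The miR408 5p arm had 3226, 3301 and 3659 CPM in hasty and 4804, 5702 and 4954 CPM in WT (log2 change of -0.60 ± 0.16 (SE), adjusted p = 0.0164, edgeR), a call lost in 4 alternatives. Its 3p arm, miR408-3p, had a log2 change of -0.28 and did not pass.

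Of the phosphate-linked sequences 1 of 6 passed, and it was lower (16.7%, against 24.3% lower over all tested sequences). That was miR827, which limits the ubiquitin ligase NLA and had 141, 182 and 188 CPM in the hasty libraries and 534, 480.3 and 656 CPM in the WT libraries, 3.26-fold lower in hasty without overlap (log2 change of -1.71 ± 0.19 (SE), adjusted p = 8.86e-05, edgeR). The main miR399 sequence, from miR399b and miR399c, had overlapping groups, with 270.4, 353 and 375 CPM in hasty and 384, 356 and 449 CPM in WT. Neither sulfate-linked miR395 sequence passed (adjusted p = 0.657 for miR395a and 0.0637 for miR395b, edgeR).

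For the NF-YA regulators of the miR169 family, 2 sequences were higher (28.6%, against 16.5% over all) and 2 lower (28.6%, against 24.3%) of 7 tested. The miR169a-5p sequence had 287, 281 and 265 CPM in hasty and 155, 176 and 151 CPM in WT and rose (log2 change of 0.79 ± 0.14 (SE), adjusted p = 0.00173, edgeR), a call lost with no filter on low counts. The sequence of miR169h to miR169n had 342, 296 and 269 CPM in hasty and 1195, 1068 and 1071 CPM in WT. Its fall (log2 change of -1.88 ± 0.37 (SE), adjusted p = 0.00274, edgeR) rests on the listing: in WT, 3 of its names stood about 1000 counts above others of the same sequence, with miR169i minus miR169j at 1000, 999 and 999 and miR169h minus miR169k at 1000, 1000 and 600. Merged by the median of its names, it had a log2 change of -0.41 with adjusted p = 0.329 (edgeR).

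The stomatal regulator miR824-5p, which acts on AGL16, had 296, 370.2 and 310.3 CPM in the hasty libraries and 164, 134 and 157 CPM in the WT libraries (log2 change of 1.10 ± 0.15 (SE), adjusted p = 3.95e-04, edgeR). The flavonoid regulator miR858a, which acts on MYB factors, had 497, 524 and 597 CPM in hasty and 280.2, 220.1 and 284 CPM in WT (log2 change of 1.04 ± 0.18 (SE), adjusted p = 0.00113, edgeR). Both rose, with every hasty library above every WT library. Of the DCL4-dependent miR822 and miR839, miR839-5p was higher in hasty (log2 change of 0.97, adjusted p = 0.00884, edgeR), a call lost with the miR166 sequence left out and with no filter on low counts. The largest fall among sequences above 0 in all 6 libraries belonged to miR781a, in an intron of AT1G21200 on the same strand (chr1:7423523-7423543, TAIR10.1), with 14.9, 6.59 and 17.8 CPM in hasty and 218, 137 and 143 CPM in WT (log2 change of -3.65 ± 0.46 (SE), adjusted p = 2.30e-04, edgeR). The sequence miR773a, which acts on the DNA methyltransferase gene MET2, had 10224, 10634 and 11571 CPM in hasty and 20991, 22281 and 20097 CPM in WT (log2 change of -0.97 ± 0.08 (SE), adjusted p = 2.10e-05, edgeR). Every hasty library lay below every WT library. The PPR-gene regulator miR161.1, which triggers secondary small interfering RNAs, had 26365, 29660.0 and 29671 CPM in hasty and 38981, 31840.3 and 40318 CPM in WT, and miR158a-3p had 21895, 22307 and 21074 CPM in hasty and 34051, 27429 and 35428 CPM in WT. Both were lower in hasty (log2 changes of -0.38 and -0.57, adjusted p = 0.0116 and 6.38e-04, edgeR). The other secondary siRNA triggers, miR173-5p and the miR390 sequence, were listed at 0 in 1 and 2 WT libraries and gave no call. Among the SCARECROW-like regulators 1 of 6 fell (16.7%, against 24.3% over all). That was the 5p arm shared by miR170 and miR171a (log2 change of -0.46, adjusted p = 0.00147, edgeR). The jacalin lectin regulator miR842 had a log2 change of -0.29 with a call lost in 6 alternatives.

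**Figure D3:**
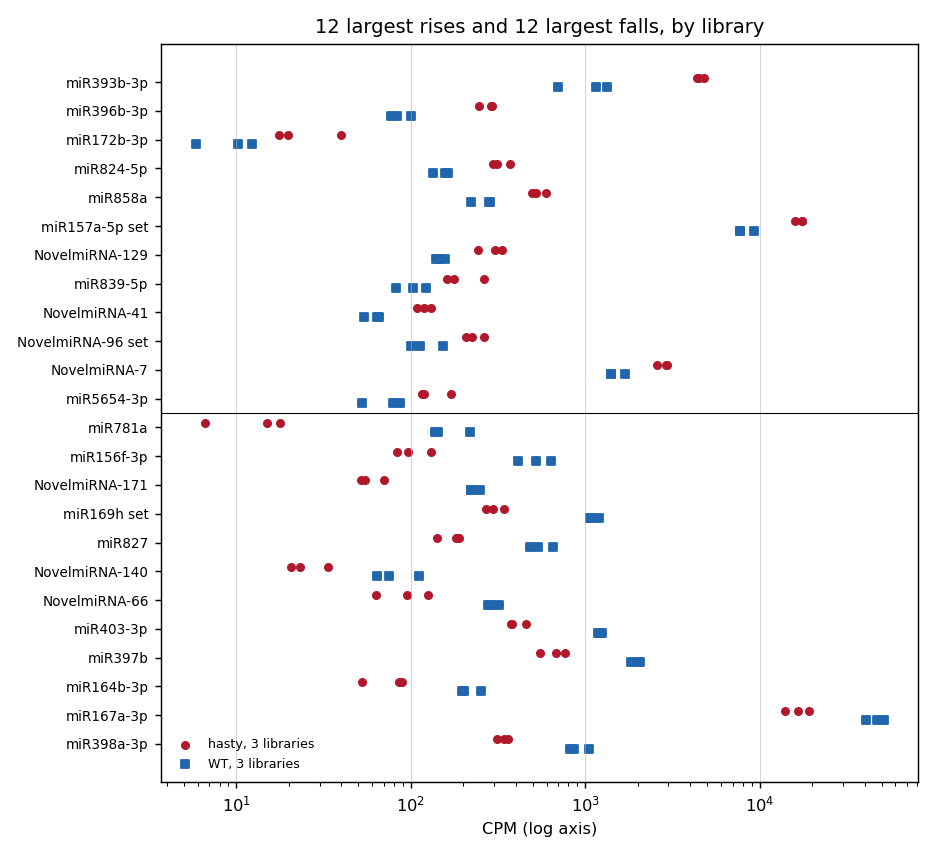
CPM (log axis) in each of the 3 hasty libraries (red circles, upper of each row) and 3 WT libraries (blue squares, lower) for the 12 largest rises, above the line, and the 12 largest falls, below it, among called sequences above 0 in all 6 libraries averaging 10 CPM or more in whichever genotype was higher, without overlap. Among them miR393b-3p rose 4.31-fold while miR781a had the largest fall.

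**Figure D4:**
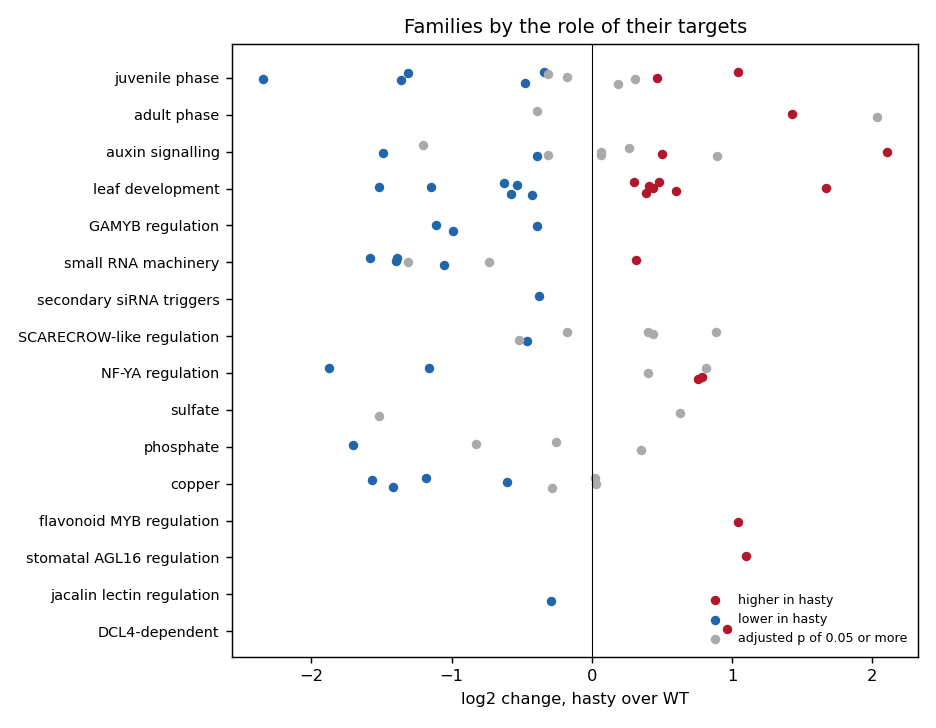
Each point is 1 tested sequence above 0 in all 6 libraries, placed by its log2 change of hasty over WT (horizontal) in the row of the list its family belongs to. Red points were higher and blue points lower in hasty at an adjusted p under 0.05; all 3 miR159 points (GAMYB regulation) are blue, and the juvenile phase and leaf development rows hold both colours.

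Predicted names are described by their counts alone. Of the 32 above 0 in all 6 libraries, 8 were higher, 6 lower and 18 did not pass. Over all 126 such sequences, known and predicted, 27 were higher, 42 lower and 57 did not pass. NovelmiRNA-7 had 2947, 2886 and 2574 CPM in the hasty libraries and 1404, 1695 and 1403 CPM in the WT libraries (log2 change of 0.90 ± 0.09 (SE), adjusted p = 5.40e-05, edgeR), and NovelmiRNA-171 had 54.6, 51.6 and 70 CPM in hasty and 251, 222 and 221 CPM in WT (log2 change of -1.97 ± 0.30 (SE), adjusted p = 6.30e-04, edgeR). The first rose and the second fell, each without overlap. NovelmiRNA-129 and NovelmiRNA-41 were higher (log2 changes of 0.99 and 0.96) and NovelmiRNA-140 lower (-1.70). A further 10 predicted names held the counts of a known name in every library, such as NovelmiRNA-1 those of miR403-3p, and were merged with it.

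A further 11 sequences were listed at 0 in all 3 libraries of one genotype and held 25 counts or more in all 3 of the other. The auxin-linked miR847, which acts on the IAA28 messenger, was listed at 0, 0 and 0 counts in hasty and 1976, 1008 and 1161 in WT. Those at 0 in all 3 WT libraries were miR848 (138, 128 and 178 counts in hasty), miR2934-5p (32, 51 and 34) and NovelmiRNA-35 (35, 52 and 29). No fold is given, because the table also listed 0 in single libraries of sequences that were well counted elsewhere in the group.

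The 2 arms of a hairpin come from 1 precursor, and the ratio of their sequences within a library depends little on the scaling of libraries. Of 46 pairs tested by limma on log2((5p CPM + 1)/(3p CPM + 1)), 19 ratios differed (41.3%), 10 with the 5p arm higher relative to the 3p arm in hasty and 9 with it lower. The less abundant arm fell relative to the other in 14 of the 19 and rose in 5. Most pairs that did not pass shifted the same way, so this split is not particular to the called ratios. In 30 of the 46 an arm sequence is shared by several hairpins, among them miR393b, miR167a and miR157a. Such a ratio can also move when 1 hairpin changes against another that gives the same arm sequence, and these were not told apart. Pairs that share an arm are also not independent. For miR393b the log2 ratio was -5.49, -5.93 and -6.04 in the hasty libraries and -3.63, -3.26 and -4.29 in the WT libraries, a change of -2.09 ± 0.26 (SE, adjusted p = 5.00e-04, limma). For miR396b it was 6.99, 7.03 and 7.21 in hasty and 8.06, 8.04 and 8.64 in WT (change of -1.17, adjusted p = 0.00252, limma), and for miR396a, 5.02, 4.79 and 4.76 in hasty and 3.84, 3.51 and 4.01 in WT (change of 1.07, adjusted p = 6.55e-04, limma). The 2 miR396 hairpins therefore went opposite ways, without overlap in either. For miR167a it was 2.42, 2.72 and 2.78 in hasty and 1.04, 0.73 and 1.44 in WT (change of 1.57, adjusted p = 5.00e-04, limma), with the passenger 3p arm the one that fell. The miR157a and miR157b pair had 1.25, 1.47 and 1.48 in hasty and 0.11, 0.05 and 0.37 in WT (change of 1.22, adjusted p = 5.00e-04, limma), since the 5p arm rose and the 3p arm had a log2 change of -0.18 that did not pass. The other called ratios with the largest shifts were miR156f (1.86), miR160a (1.56), miR157c (1.38) and miR156d (0.89) upward, and miR169f (-2.05), miR172b (-1.73), miR162 (-1.08), miR165a (-0.95), miR156b (-0.93) and miR167c (-0.89) downward, all on the log2 scale. The call of miR390a (1.23) rests on WT libraries where both arms were listed at 0 and was lost in 9 of 14 alternatives. Those of miR160a and miR169f were lost without single libraries.

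**Figure D5:**
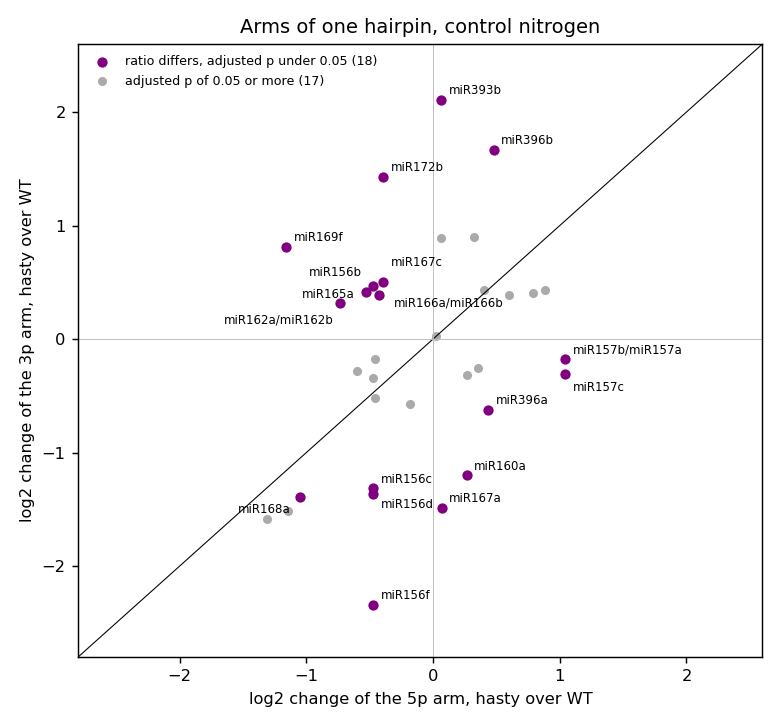
Log2 change of hasty over WT of the 5p arm (horizontal) against that of the 3p arm (vertical) for the 35 hairpin pairs with both arms tested and above 0 in all 6 libraries; on the diagonal both arms change alike. Purple points are the 18 pairs whose arm ratio differed in hasty at an adjusted p under 0.05 and grey points the 17 that did not pass; miR393b lies far above the line, miR156f and miR167a far below it.

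Summed by seed, 43 of 100 groups differed (43%), 14 higher and 29 lower in hasty. Of the 20 groups that hold several sequences 9 differed (45%), 8 lower and, for miR172, 1 higher. Among the lower groups is that of miR169a-5p and miR169h to miR169n (log2 change of -1.02). Its WT sum includes the miR169h to miR169n counts that rest on the listing, as described above. The miR164 group summed to 3789.5 ± 47.8 CPM in hasty and 8263 ± 178 CPM in WT (log2 change of -1.12, adjusted p = 1.22e-06, edgeR), and the miR397 group to 663 ± 94.2 CPM in hasty and 2081 ± 155 CPM in WT (log2 change of -1.65, adjusted p = 3.03e-05, edgeR; SD, n = 3 each). Both groups kept the direction of their main member. The sums of the miR165 and miR166 group and of the miR396 5p group did not pass, with log2 changes of 0.30 and 0.36 (adjusted p = 0.0717 and 0.0511, edgeR), nor did that of the miR398 3p group (-0.10, adjusted p = 0.5, edgeR). The abundant sequence sets such a sum, as for miR398, where miR398b and miR398c hold most of it.

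The low-nitrogen libraries, which share no sample with the control ones but were fitted with them, gave 78 of 206 sequences called between genotypes (37.9%). The 24 named for the largest changes in control, chosen among called sequences above 0 in all 6 control libraries, had the same sign there, and 21 were called. The log2 changes in low nitrogen were 1.78 for miR393b-3p, 1.41 for miR396b-3p, 0.68 for the miR157 5p sequence, -2.70 for miR781a, -2.05 for miR156f-3p, -1.26 for miR403-3p and -1.68 for miR167a-3p. Those not called in low nitrogen were miR172b-3p, miR5654-3p and the miR169h to miR169n sequence. In control the call of miR5654-3p was itself lost in 10 of 20 alternatives. A test of the difference between the genotype effects passed for 1 of 52 named sequences, NovelmiRNA-66 (adjusted p = 0.0235, edgeR), which was listed at 0 in all 3 hasty libraries of low nitrogen; the call was lost in 4 of 19 alternatives, among them no filter on low counts, the replicate block and WT replicate 2 left out. Over all 206 tested sequences it passed for 4. Besides 2 predicted names, these were the miR157 3p sequence, with a log2 change of -0.18 in control and -1.21 in low nitrogen, and the miR166a 5p sequence, with -0.43 in control and 0.23 in low nitrogen (adjusted p of the difference = 0.0318 and 0.0235, edgeR). Those calls were lost in 6 and 8 of 19 alternatives.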

How the data were processed

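Small RNA reads from shoot total RNA were amplified by PCR with no molecular identifiers named, per the labels' protocols. The authors deposited 1 table of whole-number counts per miRNA name, although it is named TPM. The build, aligner and counting are not given in the sources used here, apart from mm10, a mouse assembly, in the submitters' processing notes. Counts include sampling error, and replicates differed by more than it. Names of 1 mature sequence (TAIR10.1), or predicted names with rows identical to another name, were merged by the highest count per library. Counts of 12 libraries in 4 groups were filtered with filterByExpr and fitted with edgeR 4.0.16 (R 4.3.3; TMM, two-sided quasi-likelihood tests by glmQLFit and glmQLFTest), leaving 8 residual degrees of freedom. The SE of a log2 change is its size divided by the square root of F, so it restates the test. Arm ratios, with both arms at a mean of at least 5 CPM, were fitted with limma 3.58.1 and a pseudocount of 1 CPM. The fits were also run on simulated counts, with less spread between replicates than the common spread fitted here and without the listed zeros described above. That run cannot say how well the fits did on these data. DESeq2 1.42.0 was an alternative. Adjusted p-values are Benjamini-Hochberg with a threshold of 0.05, and rest on the spread between the labelled biological replicates. Called sequences above 0 in all 6 libraries, with at least 10 CPM in the higher genotype and no overlap, were named by size (12 each way), besides the 10 most abundant, 3 of each of 16 family lists, the 8 largest arm ratios each way, seed groups of several sequences and those at 0 in 1 genotype. A further 18 sequences were named after their values were seen. Groups without overlap made up 58.3% of the tested sequences. The members and lists were chosen with earlier results of these data known.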

Additional observations from a re-analysis of the deposited data

Results flagged for a closer look

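The genotype effect differed between nitrogen conditions in 4 sequences by edgeR's interaction contrast, given as the log2 change of hasty over WT in control minus that in low nitrogen. For the miR157a and miR157b 3p sequence the difference was 1.03, with 6683, 6304 and 6223 CPM in hasty control and 7132, 7387 and 7184 CPM in WT control, against 3616, 3605 and 5153 CPM in hasty low nitrogen and 11088, 8969 and 8517 CPM in WT low nitrogen. For the miR166a and miR166b 5p sequence it was -0.65, with 1006, 971 and 875 CPM in hasty control and 1263, 1277 and 1294 CPM in WT control, against 1230.0, 1108 and 1063 CPM in hasty low nitrogen and 1014, 888 and 1006 CPM in WT low nitrogen. NovelmiRNA-66 gave 5.03 and NovelmiRNA-70 gave 13.43; both were listed at 0 in all 3 hasty libraries of low nitrogen, so these fitted values depend on the prior count and are no measure of size. The part of listing in those zeros was not tested. Of 19 alternatives, the call was lost in 6 for the miR157 3p sequence, 8 for the miR166a 5p sequence, 4 for NovelmiRNA-66 and 0 for NovelmiRNA-70.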

How the results depend on the processing

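Counts of calls stayed within 1.5 times the reported ones in every alternative tried: 67 to 125 for the sequence fit, 37 to 54 for the seed groups and 15 to 19 for the arm ratios. The 125 came from counting every deposited name separately, where names of 1 sequence count more than once, so it is no count of mature sequences. Among fits on mature sequences DESeq2 called the most, 53 higher and 50 lower. Leaving out 1 library gave 67 to 78 sequences, 37 to 43 seed groups, 15 to 18 arm ratios and 0 to 1 differences between nitrogen conditions, where WT replicate 2 gave the 0. That difference was called for 1 named sequence in the reported fit, for 2 with median-of-ratios size factors, for 3 with DESeq2, and for 0 with no filter on low counts, with the replicate block, or with only sequences above 0 in all 6 control libraries; the cause was not tested. The direction of the split moved more: 16 higher and 55 lower with no filter, 25 and 62 with predicted names kept apart, and 39 and 43 with median-of-ratios factors. Of 56 named sequences called, 36 passed in every alternative, as did 13 of 16 named arm ratios. Alternatives using the median of the names, other TMM factors, predicted names kept apart and pairs above 0 in all libraries were added after the data were seen.

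Libraries of hasty and WT with the same replicate number correlated at 0.278, -0.00748 and 0.203 in their deviations from the group means, and not every library correlated best with its own number, so the numbers were not taken as a pairing. With the replicate block, 67 sequences (26 higher, 41 lower), 39 seed groups and 18 arm ratios were called. Depth limits sequences under about 10 CPM, which rest on few counts.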
